A study of Mus musculus with 6 samples.

Results

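The 10 genes described here are immediate early genes, Fos, Fosb, Jun, Junb, Egr1, Egr2, Egr3, Arc, Nr4a1 and Ier2. They were chosen by name, with earlier results of these data known. All probes that carried one of these symbols in the annotation of an Illumina mouse bead array were taken. Each gene had 1 probe, so the set held 10 of the 16593 genes named on the array, and 10 of its 25697 probes. RNA was measured in 6 brain tumours that grew from cells transplanted into SCID mice, hosts that lack mature T and B cells but keep myeloid cells. The cells of all 6 tumours carried floxed p53 alleles (p53fl/fl) and hEGFRvIII, a human gene whose product is a shortened EGF receptor of gliomas that signals without its ligand. In 3 tumours the cells were Olig2cre/+, with cre at 1 allele of Olig2, and in the other 3 they were Olig2cre/cre, with cre at both. The tumours were collected when the hosts showed neurological signs. The labels give ages of 45, 50 and 47 days for tumours 1, 2 and 3 of each genotype, and which of 45 and 47 days belongs to tumours 1 and 3 is uncertain, because the authors' normalized table exchanges these numbers in both groups. The sources used here do not give the promoter of the receptor gene or the state of the floxed alleles. They also do not say whether each tumour had its own cell line, so p-values cover only the spread between these tumours, which may be technical.

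Immediate early genes are transcribed within minutes of a stimulus without new protein synthesis. Growth factor receptors such as the EGF receptor reach them through the ERK kinases and the serum response factor, and calcium entry in active neurons reaches them through CREB. Most encode transcription factors that set a later wave of genes. In brain they are widely used as marks of recent neuronal activity, and they also respond to injury and to tissue handling.

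The arrays detected between 53.4% and 57.6% of the probes, where detected means a detection p-value under 0.05. Over tested probes the log2 intensities of the Olig2cre/cre tumours correlated with each other at r = 0.886 to 0.928, and those of the Olig2cre/+ tumours at r = 0.943 to 0.980. With the Olig2cre/+ tumours, Olig2cre/cre tumour 1 correlated at 0.766 to 0.837, tumour 2 at 0.830 to 0.890 and tumour 3 at 0.914 to 0.941. The probe of the targeted gene Olig2, a transcription factor of oligodendrocyte precursors, read log2 intensities of 7.76, 7.85 and 7.13 in the Olig2cre/+ tumours and 6.41, 5.86 and 6.44 in the Olig2cre/cre tumours. The Olig2 values of the groups did not overlap, and the difference of -1.34 missed the threshold (limma adjusted p = 0.0555). The Olig2 probe was detected in all 6 tumours. Whether it lies in the part of Olig2 that cre replaced, and how much of its signal came from host cells, is not known here.

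The comparison asked whether immediate early genes differed between tumours whose transplanted cells kept a normal Olig2 allele and tumours whose transplanted cells did not. Egr2 was lower in the Olig2cre/cre tumours, by 5.99-fold, and was the 1 gene of the set that passed the test. Egr1, Fos and Arc had lower means in the Olig2cre/cre tumours, by 3.10-fold, 2.53-fold and 4.49-fold, and did not pass. Junb, Fosb, Jun and Egr3 differed by less than 1 on the log2 scale in either direction. The probes of Nr4a1 and Ier2 were not detected in any tumour.

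**Figure D1:**
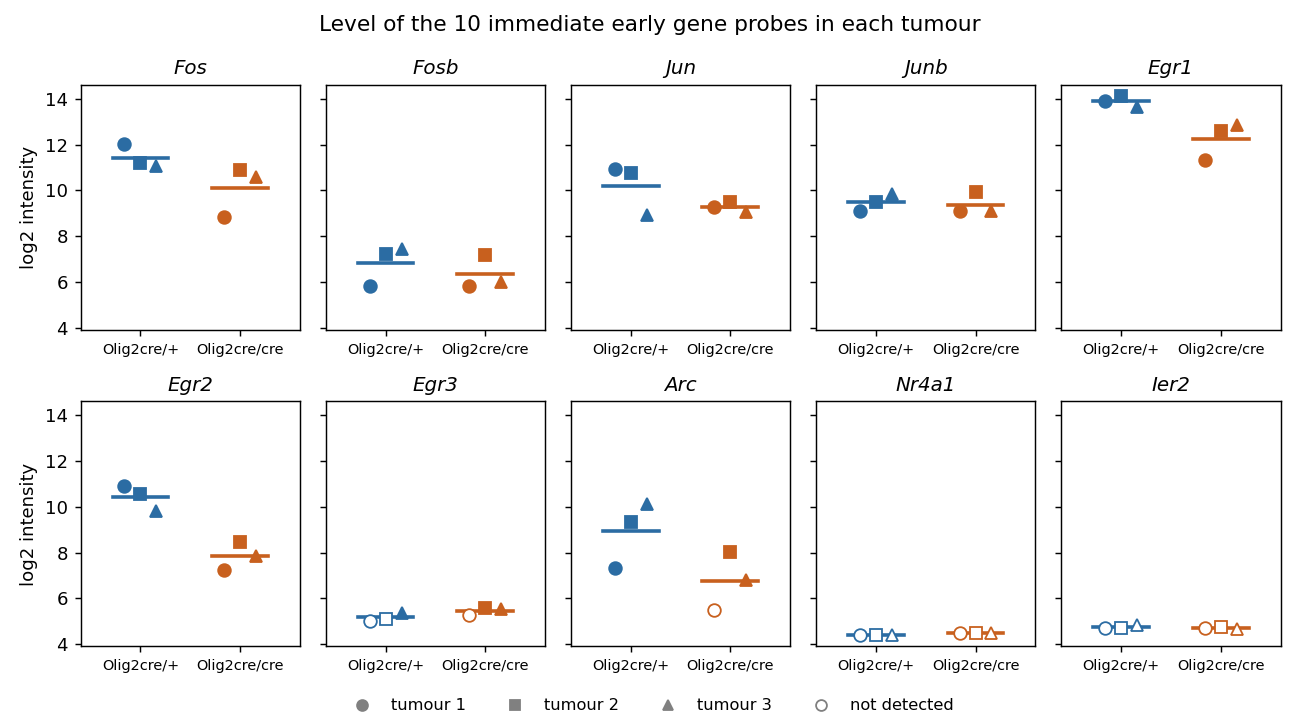
Each panel shows 1 probe, with log2 intensity on the vertical axis and the genotypes on the horizontal axis. Points are single tumours, open where the probe was not detected, and bars are group means. The 3 Olig2cre/cre points of Egr2 lie between 7.26 and 8.45, below all Olig2cre/+ points (9.83 to 10.93).

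A probe was tested if it was detected on at least 3 of the 6 arrays, which 14606 probes passed, 8 of the 10 described here among them. Differences are Olig2cre/cre minus Olig2cre/+ on the log2 intensity scale, with the standard error (SE) of the limma fit, and p-values were adjusted over all tested probes. Past an adjusted p of 0.05, 1 of the 8 probes was lower and none higher. Over all tested probes 4.42% were called, 1.77% lower and 2.65% higher. With an unadjusted p under 0.05, 4 of the 8 probes were lower (Egr1, Egr2, Fos and Arc) and none higher, where 25.3% of all tested probes passed, 13.1% lower and 12.2% higher. The groups did not overlap, with Olig2cre/cre lower, for 3 of the 8 probes (Egr1, Egr2 and Fos) and for 15.4% of all tested probes. With Olig2cre/cre higher, the groups were apart for 0 of the 8 and for 15.8% of all tested probes. The mean was lower in Olig2cre/cre for 7 of the 8 probes and for 48.5% of all tested probes. The median difference of the 8 probes was -1.13, and that of all tested probes was 0.02. Because the set was chosen with earlier results of these data known, these shares and medians describe it and test nothing.

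The Egr genes encode zinc finger transcription factors that bind GC-rich sites. Egr2, also known as Krox20, patterns the hindbrain and drives myelination by Schwann cells in peripheral nerve. Its log2 intensities were 10.93, 10.55 and 9.83 in the Olig2cre/+ tumours and 7.26, 8.45 and 7.85 in the Olig2cre/cre tumours. Every Olig2cre/cre value lay below every Olig2cre/+ value, and the probe was detected in all 6 tumours. The Egr2 difference was -2.58 ± 0.41 (SE, n = 3 per group), with a 95% interval from -3.54 to -1.62 (limma adjusted p = 0.0272).

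The size of the Egr2 difference was steadier than its call. It was -2.33, -2.53 and -2.89 without Olig2cre/+ tumours 1, 2 and 3 (limma adjusted p = 0.0893, 0.142 and 0.0680), and -2.27 and -2.90 without Olig2cre/cre tumours 1 and 2 (limma adjusted p = 0.0504 and 0.0547). Only without Olig2cre/cre tumour 3 did Egr2 still pass among these (-2.58, limma adjusted p = 0.0212). The share of all tested probes called moved as well. It was 0.0563%, 0.0494% and 0.149% without Olig2cre/+ tumours 1, 2 and 3. Without Olig2cre/cre tumours 1, 2 and 3 it was 1.66%, 0.375% and 13%.

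Egr1, the best known member of the family and a direct target of ERK signalling, read 13.90, 14.12 and 13.63 in the Olig2cre/+ tumours and 11.33, 12.58 and 12.84 in the Olig2cre/cre tumours. The groups did not overlap for Egr1 either, and Olig2cre/cre tumour 1 was the lowest. The Egr1 difference was -1.63 ± 0.42 (SE, n = 3 per group, limma adjusted p = 0.0729), with an interval from -2.62 to -0.64. It passed without Olig2cre/cre tumour 3 (-1.93, limma adjusted p = 0.0323), where 13% of all tested probes were called. Egr3 lay close to background, at 5.04, 5.13 and 5.36 against 5.28, 5.58 and 5.52, and was detected in 1 Olig2cre/+ and 2 Olig2cre/cre tumours. Egr3 was the 1 tested probe of the set with a higher mean in Olig2cre/cre (0.29 ± 0.23, SE, n = 3 per group, limma adjusted p = 0.483).

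Egr2 and Fos, which had lower values in every Olig2cre/cre tumour, and Junb, whose groups overlapped, are shown here with the sequence around their annotated starts, since sites near the start are part of how immediate early genes receive their signals. RefSeq promoter windows (GRCm38.p6, 250 bases before to 50 bases after a start) were used for 6 of the 10 genes, Fos, Fosb, Jun, Junb, Egr2 and Nr4a1. Those of Egr1, Egr3, Arc and Ier2 are not used here. Each window was searched on both strands for the CArG box that the serum response factor binds, the cyclic AMP response element TGACGTCA, its core TGACG, the EGR site GCGNGGGCG and the AP-1 site TGANTCA. The core lies within the full element. Egr2 has 5 windows, and the one with the most matches is shown, the first of 3 with equal counts. The windows are Egr2 at chr10:67537619-67537918 on the plus strand, Fos at chr12:85473640-85473939 on the plus strand and Junb at chr8:84978699-84978998 on the minus strand, each 5′ to 3′ along the gene with the matches in capitals.

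Egr2: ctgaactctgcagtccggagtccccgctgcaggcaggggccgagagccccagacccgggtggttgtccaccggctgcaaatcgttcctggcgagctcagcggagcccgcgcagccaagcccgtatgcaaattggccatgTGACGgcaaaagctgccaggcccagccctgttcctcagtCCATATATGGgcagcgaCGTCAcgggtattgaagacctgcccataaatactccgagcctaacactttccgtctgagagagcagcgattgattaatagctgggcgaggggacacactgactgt
Fos: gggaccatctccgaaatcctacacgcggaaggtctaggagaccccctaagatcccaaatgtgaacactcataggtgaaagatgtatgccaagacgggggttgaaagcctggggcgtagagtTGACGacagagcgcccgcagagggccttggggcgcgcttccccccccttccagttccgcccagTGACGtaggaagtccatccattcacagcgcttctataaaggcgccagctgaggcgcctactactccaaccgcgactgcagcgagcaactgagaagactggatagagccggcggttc
Junb: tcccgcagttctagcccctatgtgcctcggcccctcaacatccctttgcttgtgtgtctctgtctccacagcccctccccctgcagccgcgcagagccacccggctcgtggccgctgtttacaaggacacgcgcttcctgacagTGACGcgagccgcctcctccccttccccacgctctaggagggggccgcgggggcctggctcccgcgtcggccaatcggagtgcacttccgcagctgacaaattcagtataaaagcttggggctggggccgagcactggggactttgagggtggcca

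The Egr2 window held a CArG box, CCATATATGG, beginning 72 bases before the start. A CArG box was found in 1.63% of the 32851 RefSeq promoter windows. That share is for windows not chosen by their matches, while the Egr2 window was chosen so from 5. The Egr2 window also held the core TGACG at 111 bases and, on the other strand, at 55 bases before the start. The core occurred at 2 places in the Fos window and at 1 in that of Junb, and in 20.8% of all windows. Neither of these windows held a CArG box, and bases more than 250 before a start were not searched. So whether Fos or Junb has such a box further away is not known here. The EGR site was found in the Fosb and Nr4a1 windows, once each, and in 5.55% of all windows. No member window used here held the full element (1.79% of all windows) or the AP-1 site (7.81%). These matches describe letters only, and no binding was measured.

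Fos, Fosb, Jun and Junb encode subunits of the dimeric transcription factor AP-1, in which Fos proteins need a Jun partner to bind DNA. Fos read 12.02, 11.21 and 11.07 in the Olig2cre/+ tumours and 8.83, 10.89 and 10.56 in the Olig2cre/cre tumours. Olig2cre/cre tumour 1 was the lowest, while tumours 2 and 3 lay less than 1 log2 unit under the lowest Olig2cre/+ value. The Fos difference was -1.34 ± 0.57 (SE, n = 3 per group, limma adjusted p = 0.196), and without Olig2cre/cre tumour 1 it was -0.70 (limma adjusted p = 0.318).

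Jun, the main partner of Fos, read 10.92, 10.76 and 8.92 in the Olig2cre/+ tumours and 9.28, 9.50 and 9.04 in the Olig2cre/cre tumours. The lowest Jun value of all was that of Olig2cre/+ tumour 3, so the groups overlapped. The Jun difference was -0.93 ± 0.53 (SE, n = 3 per group, limma adjusted p = 0.332), -1.57 without Olig2cre/+ tumour 3 (limma adjusted p = 0.0828) and -0.56 without Olig2cre/+ tumour 1 (limma adjusted p = 0.614).

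Junb, a weaker activator that can oppose Jun, read 9.11, 9.51 and 9.82 against 9.08, 9.92 and 9.08. Its groups covered the same range. The Junb difference was -0.12, with a 95% interval from -0.90 to 0.66 (limma adjusted p = 0.860), and its sign turned when some tumours were left out (-0.41 to 0.052). Fosb, whose product can replace Fos in AP-1, was dim, at 5.83, 7.21 and 7.44 against 5.82, 7.17 and 5.99. Its groups overlapped, and its difference of -0.50 had an interval from -1.76 to 0.75 (limma adjusted p = 0.612). It ran from -0.999 to -0.20 with 1 tumour left out, the extremes being without Olig2cre/+ tumours 1 and 3.

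Arc is not a transcription factor. Its protein acts at synapses, where it promotes the uptake of AMPA receptors, and its mRNA is a mark of recently active excitatory neurons. Arc read 7.34, 9.36 and 10.12 in the Olig2cre/+ tumours and 5.48, 8.03 and 6.82 in the Olig2cre/cre tumours. Olig2cre/cre tumour 1 did not detect it, and Olig2cre/cre tumour 2 lay above Olig2cre/+ tumour 1, so the groups overlapped. The spread within a group was the widest of the tested members, with an SD of 1.44 and 1.28 (n = 3 per group), and the difference of -2.17 ± 0.86 did not pass (SE, limma adjusted p = 0.172). With no background correction it was -1.34 (limma adjusted p = 0.200).

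Nr4a1 encodes the orphan nuclear receptor Nur77, and Ier2 a nuclear protein induced by growth factors. The probe of Nr4a1 gave uncorrected signals of 128, 140 and 132 in the Olig2cre/+ tumours and 140, 140 and 141 in the Olig2cre/cre tumours. The Ier2 probe gave 146, 164 and 157 against 151, 157 and 152. Both were among the undetected signals of every array and were not tested. With 1 probe each, low RNA and a probe that does not report its transcript cannot be told apart, so their levels are not known here.

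**Figure D2:**
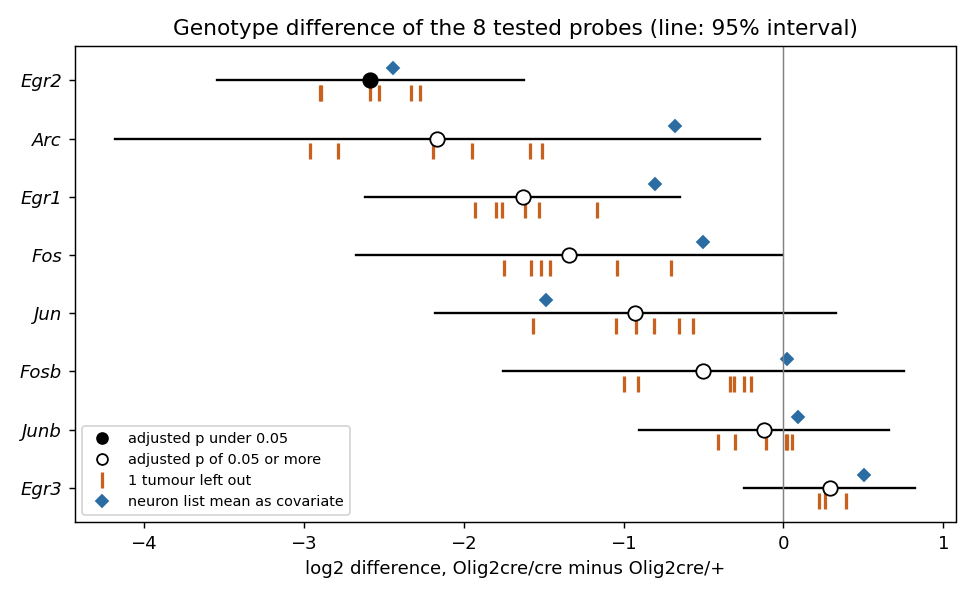
The horizontal axis is the log2 difference, Olig2cre/cre minus Olig2cre/+, for the 8 tested probes, with the 95% interval as a line and a filled circle where the adjusted p is under 0.05. Ticks show the difference with 1 tumour left out, and diamonds that with the neuron marker mean as a covariate. Egr2 stays between -2.90 and -2.27 when a tumour is left out, and its diamond lies at -2.44, while the diamonds of Arc, Egr1 and Fos lie at -0.68, -0.80 and -0.50.

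Markers of several cell types moved with the genotypes. In bulk tissue fewer cells of a type and less RNA per cell cannot be told apart. Of 21 tested probes of the neuron marker list, 18 had a lower mean in the Olig2cre/cre tumours and none passed. The summed intensity of the list, with the brightest probe of each gene, was 51276 to 110349 in the Olig2cre/+ tumours and 7580 to 47378 in the Olig2cre/cre tumours, and the listed markers Snap25, Gad2 and Nefl were not detected on any array. The mean log2 intensity of the neuron list, relative to the Olig2cre/+ mean, was -0.77, 0.01 and 0.76 in Olig2cre/+ tumours 1 to 3 and -4.61, -2.38 and -0.72 in Olig2cre/cre tumours 1 to 3. In the Olig2cre/+ group Arc, Fosb, Junb and Egr3 had the same order of tumours as the neuron list, whereas Fos, Jun and Egr2 were highest in tumour 1, where the neuron list was lowest. In the Olig2cre/cre group every tested member but Jun was lowest in tumour 1, where the neuron list was also lowest. The oligodendrocyte and astrocyte marker lists had the same order there as the neuron list (-4.71, -4.15 and -1.28, and -0.36, -0.16 and 0.24). So this order was not particular to neuron markers, and an order shared by 3 tumours can arise by chance. In the Olig2cre/cre group these marker lists and Egr1 were highest in tumour 3, whereas the other tested members were highest in tumour 2.

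When the neuron list mean was added to the fit as a covariate, the Egr2 difference was -2.44 and no longer passed (limma adjusted p = 0.209). The covariate was itself lower on average in the Olig2cre/cre tumours, so 6 arrays separate it poorly from genotype. With it 0.192% of all tested probes were called, where 4.42% were called without it. The differences of the other probes moved further, to -0.68 for Arc, -0.80 for Egr1 and -0.50 for Fos (limma adjusted p = 0.880, 0.625 and 0.875). That of Jun became -1.49 (limma adjusted p = 0.553). Oligodendrocyte markers were lower in the mean at all 17 tested probes, of which 4 passed, with sums of 66918 to 73482 against 2964 to 50100 and Aspa and Ermn at no detected signal. Endothelial markers were higher at 8 of 9 tested probes, of which 5 passed, with sums of 1972 to 2801 against 4771 to 9371. Microglia or macrophage markers were higher at all 12 tested probes, of which 2 passed, with sums of 7651 to 11550 against 14524 to 35736. Astrocyte markers were higher in the mean at 11 of 15 tested probes and none passed, with sums of 55129 to 69570 against 58459 to 73630. Several of those probes shared a gene, and with the brightest probe of each gene 6 were higher and 4 lower. The part of the oligodendrocyte, endothelial, microglial and astrocyte lists in the values of the immediate early genes was not tested.

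**Figure D3:**
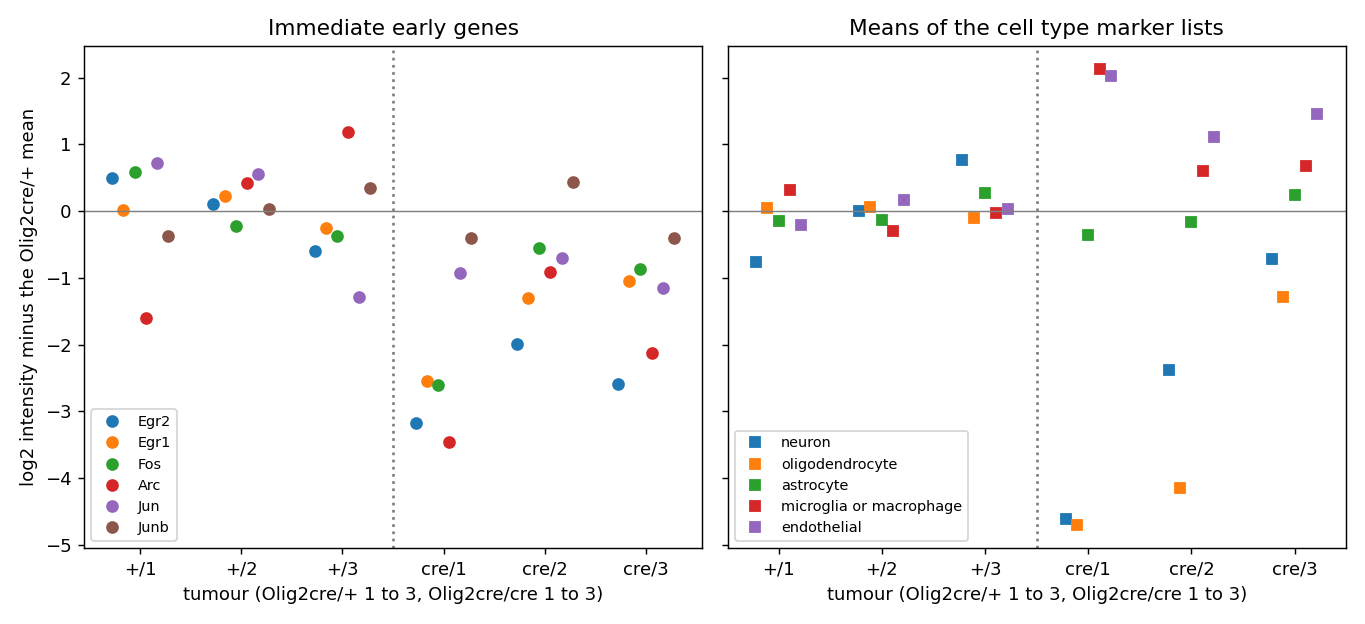
Both panels give log2 intensity minus the Olig2cre/+ mean, for 6 immediate early genes on the left and for the means of the marker lists on the right, with the 6 tumours on the horizontal axis. In Olig2cre/cre tumour 3 the neuron mean is at -0.72, just inside the Olig2cre/+ range, whose lowest value is -0.77. That mean covers genes that differ there. Several neuron markers, such as Syp (12.65), Syt1 (9.50) and Snhg11 (10.54), read below every Olig2cre/+ tumour. Nefh (9.73) and the brightest Celf4 probe (10.88) read above every Olig2cre/+ tumour, and other neuron markers lie inside their ranges. In that tumour Egr2, Egr1, Fos and Arc lie below their Olig2cre/+ ranges, Junb lies just below its range and Jun lies inside. The oligodendrocyte mean (-1.28) is below its range, and the endothelial (1.46) and microglia or macrophage (0.67) means are above theirs. The astrocyte mean (0.24) is inside.

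Other genes of the response were taken from lists of 4 roles. Of the other immediate early transcription factors, 17 probes of 14 genes were tested and none passed, with a median difference of -0.07. At an unadjusted p under 0.05, which 12.2% of all tested probes passed as higher and 13.1% as lower, 1 of these probes was higher and 1 lower. The 3 genes with the smallest p were Egr4, Csrnp1 and Nr4a2. Egr4, a further zinc finger factor of the Egr family, read 8.06, 10.34 and 10.57 in the Olig2cre/+ tumours and 4.63, 7.86 and 5.67 in the Olig2cre/cre tumours, of which 2 detected it. Its groups did not overlap, and the difference of -3.60 ± 0.95 (SE, n = 3 per group) did not pass (limma adjusted p = 0.0784). Csrnp1, a nuclear protein gene, differed the other way, by 0.82 (limma adjusted p = 0.0897), and Nr4a2, an orphan nuclear receptor of dopamine neurons, by -0.64 (limma adjusted p = 0.203). Npas4, named after its values were seen, is a factor induced by neuronal activity, and its 2 probes disagreed. One, detected in 2 Olig2cre/+ tumours and in no Olig2cre/cre tumour, read 5.03, 6.59 and 7.70 against 4.58, 4.56 and 4.61 and was not tested, while the other differed by -0.11 (limma adjusted p = 0.860).

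Among immediate early signalling and effector genes, 31 probes of 20 genes were tested, and 1 probe rose and none fell, with a median of 0.04. At an unadjusted p under 0.05, 10 of the 31 were higher and 4 lower. The probe that rose was 1 of 3 of Ccn1, a secreted matrix-associated protein, at 7.07, 6.94 and 7.26 against 8.61, 8.93 and 8.12. The groups did not overlap, and the difference was 1.46 ± 0.28 (SE, n = 3 per group, limma adjusted p = 0.0404). The other Ccn1 probes differed by 1.40 and 1.57 (limma adjusted p = 0.0606 and 0.0911). A pair of feedback genes, named after their values were seen, lay on opposite sides of 0. Zfp36, which promotes decay of short-lived mRNAs, differed by 1.53, and Dusp1, a phosphatase that switches off MAP kinases, by -0.76 (limma adjusted p = 0.0718 and 0.135).

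The delayed activity-response genes of neurons had a median of -1.23 over 17 tested probes of 15 genes, of which 1 was higher and 8 lower at an unadjusted p under 0.05. The probes that fell were both of Sorcs3, a sorting receptor of neurons, by 1.33 and 1.23 on the log2 scale (limma adjusted p = 0.0424 and 0.0467), and none rose. The first of these Sorcs3 probes read 8.79, 9.10 and 9.39 in the Olig2cre/+ tumours and 7.51, 7.88 and 7.89 in the Olig2cre/cre tumours, with no overlap. Of the kinases and factors that induce immediate early genes, 28 probes of 19 genes were tested, with a median of -0.23, and 3 were higher and 4 lower at an unadjusted p under 0.05. The 1 probe that rose was that of Rps6ka3, which encodes the ERK-activated kinase RSK2, and none fell. Rps6ka3 read 7.37, 6.90 and 6.91 in the Olig2cre/+ tumours and 9.27, 10.33 and 8.97 in the Olig2cre/cre tumours, a 5.51-fold difference with no overlap (limma adjusted p = 0.0274). The serum response factor gene Srf, named after its values were seen, differed by -0.23 at its tested probe (limma adjusted p = 0.627). The lists held 4 calls in all, where 4.42% of all tested probes were called. The calls became 0 with the neuron covariate and with no detection filter. They became 0 without any one of the Olig2cre/+ tumours or without Olig2cre/cre tumour 2. The lists held 1 call without Olig2cre/cre tumour 1. They held 14 without Olig2cre/cre tumour 3, where 13% of all tested probes were called.

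**Figure D4:**
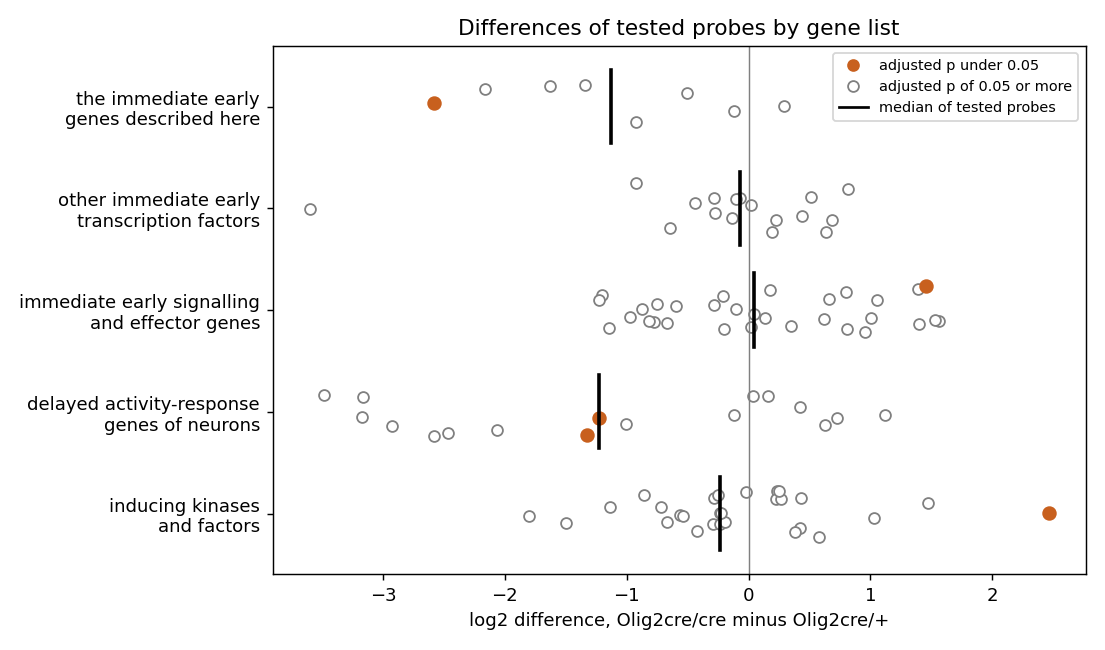
Points are tested probes, placed by their log2 difference (Olig2cre/cre minus Olig2cre/+) in rows for the immediate early genes and the 4 further lists, with vertical spread for display only. Filled points passed an adjusted p of 0.05 and black bars are medians, which lie at -1.13, -0.07, 0.04, -1.23 and -0.23 from top to bottom.

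The genes with the most similar pattern over the 6 tumours were found by the root-mean-square distance between log2 intensities, each centred on its own mean. The brightest tested probe of each of 9847 genes with a full name was compared. The closest to Fos were Nkain1, Sfrp2, Igfbpl1, Aldh1l2 and Qpct, at distances of 0.20, 0.22, 0.23, 0.27 and 0.28. Egr1 ranked 37 by distance to Fos (0.41), Egr2 630, Jun 1498, Junb 3108, Fosb 4292, Egr3 4968 and Arc 7170. The closest to Arc were Bcl11a, Gng7, Mpped1, Sez6 and Cx3cl1, at 0.28, 0.34, 0.36, 0.39 and 0.41. By distance to Arc, Fosb ranked 307, Egr1 416, Egr2 982, Fos 1037, Junb 1451, Egr3 4415 and Jun 5794.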

How the data were processed

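The authors deposited a table of probe intensity on a linear scale with a detection p-value beside each signal, per the file headers, with no normalization between arrays. A further table of theirs held quantile-normalized intensity values, and served as an alternative. RNA was extracted with Trizol and labelled as biotinylated cRNA, per the labels' protocols. The scanner software, the slides and any scan batch are not named in these sources.

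The neqc function of limma 3.58.1 (R 4.3.3) corrected the background by normexp, with control levels taken from the detection p-values and an offset of 16, normalized the arrays by quantiles and took log2. Probes detected on at least 3 of 6 arrays were fitted with genotype as the only term (lmFit, eBayes, two-sided, Benjamini-Hochberg over all tested probes). The procedure was also run on simulated data with noise independent between probes. In these tumours markers of whole cell types moved together, so that run does not give the error rate here. The number of arrays limits the precision.

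Probes were named from the platform annotation (23978 of 25697), updated by gene identifier to GRCm38.p6 symbols. The members and lists were chosen with earlier results of these data known. Named were all members, the probes past the threshold in each further list, or its 3 smallest p where none passed, and the 5 genes most like Fos and Arc.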

Additional observations from a re-analysis of the deposited data

How the results depend on the processing

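Egr2 was lower in the Olig2cre/cre tumours in all 14 other settings that tested it (-2.90 to -2.03) and passed in 7 of them. Among these 7, no background correction and the authors' normalized values gave the same numbers, so they count as 1 fit. Egr1, Fos, Jun and Arc kept their direction in every setting that tested them. Fosb was at 0.0223 with the neuron covariate. Junb was at 0.0889 with that covariate and ran from -0.406 to 0.0515 when a tumour was left out, turning sign without Olig2cre/+ tumour 3 (0.0515) and Olig2cre/cre tumours 1 and 3 (0.0217 and 0.0166). The calls over all probes, the members and the 4 further lists were 645, 1 and 4 in the report. They were 230, 0 and 0 with no detection filter (Egr2 limma adjusted p = 0.0560) and 28, 0 and 0 with the neuron covariate. At an unadjusted p they were 3697, 4 and 32. With array weights they were 1860, 2 and 16 (Egr1 limma adjusted p = 0.0214), where 12.7% of all tested probes were called. The weight was 7.30 for Olig2cre/+ tumour 2 and 0.47 to 1.19 for the other tumours. The Olig2cre/+ side of that fit therefore rests largely on 1 tumour. Leaving out 1 tumour gave 7 to 1842, 0 to 2 and 0 to 14. On the authors' normalized values 411 probes were called, and likewise with no background correction, which gives the same numbers. The median of the tested members was -0.59 with the neuron covariate and ran from -1.75 to -0.81 when a tumour was left out. Cyclic loess and testing only probes detected on all 6 arrays moved none of these counts by over 1.5 times.

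With the replicate block the calls were 1382, 2 and 9, where 9.46% of all tested probes were called, and Arc passed (limma adjusted p = 0.0397). Deviations from the group means of tumours with the same number correlated at 0.19, 0.02 and 0.30, and those with number 2 did not correlate best with each other, so the numbers were not taken as pairs, although ages in the labels match between genotypes number by number. Probes near background, such as those of Egr3, Fosb, Nr4a1 and Ier2, can hide differences that this array could not measure.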

Other observations

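Some further activity-linked genes, named after their values were seen, varied widely within a genotype. Nptx2, a secreted synaptic pentraxin, read log2 intensities of 5.62, 11.28 and 7.87 in the Olig2cre/cre tumours and 8.08, 8.40 and 8.65 in the Olig2cre/+ tumours, with a difference of -0.12 (limma adjusted p = 0.968). Scg2, a granin of secretory vesicles, read 5.02, 8.90 and 10.99 in the Olig2cre/cre tumours, of which 2 detected it, and 11.65, 11.85 and 11.87 in the Olig2cre/+ tumours. Its groups were apart, and the difference of -3.49 did not pass (limma adjusted p = 0.160). Socs3, a feedback inhibitor of cytokine receptors, read 10.05, 11.52 and 10.96 in the Olig2cre/cre tumours and 11.44, 9.60 and 9.11 in the Olig2cre/+ tumours (limma adjusted p = 0.501).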
